A study of Mus musculus with 9 samples.

Results

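Transcripts of the mitochondrial import machinery and of the chaperones and proteases of the mitochondrial matrix and inner membrane were measured in HT22, an immortalised mouse line of hippocampal neuronal origin. Members were chosen by name from the deposited table. The import members were all 26 entries whose symbol begins with Timm or Tomm followed by a digit. The stress members were 6 chaperones (Hspd1, Hspe1, Hspa9, Trap1, Grpel1 and Grpel2) and 5 proteases or protease subunits (Lonp1, Clpp, Clpx, Afg3l2 and Yme1l1). Together these were 37 of 29756 entries, and no name marked as a pseudogene met the rule. One of the import entries, Tomm6os, is an antisense transcript and encodes no translocase subunit.

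RNA was sequenced from 9 libraries, 3 labelled control, 3 labelled experimental and 3 labelled intervention. All were HT22 cells, and the labels give no genotype, dose or time for any group. Hemin, the oxidised form of heme, and the micelle PPP8 appear in the study's title, but the labels tie neither to a group, so the groups keep their labelled names here. Separate cultures are not stated for the replicates, so each p-value measures the spread between these libraries, which may be technical. Levels are in FPKM, fragment counts scaled to transcript length and library size, which can be compared between genes because it is per length.

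Most mitochondrial proteins are made in the cytosol and enter through the TOM complex of the outer membrane. The TIM23 complex then carries proteins with a presequence across or into the inner membrane, while small TIM proteins escort hydrophobic carriers to the TIM22 complex. Inside, the Hsp70 protein Hspa9 drives the import motor, Hspd1 with its lid Hspe1 folds newly arrived proteins, and ATP-dependent proteases remove damaged ones. Higher transcription of these chaperones and proteases when proteins misfold in the matrix is known as the mitochondrial unfolded protein response.

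Sequence before the start sites was available for 31 of the 37 members from RefSeq on GRCm38.p6, the assembly also called mm10. Letter patterns of 6 elements bound by stress factors or by activators of mitochondrial genes were searched in the 250 bases before each start, on both strands, in these members and in all 32851 promoters of the table. A match describes letters only. A member was counted if any of its starts had a match, while the shares are per promoter. The stretches below are a selection, all before members that were higher in the experimental libraries than in control. Not every such member with a match is printed. Matches are in capitals, and the gene's own strand is printed except for the strip shared by Hspd1 and Hspe1. Those genes, the Hsp60 and Hsp10 chaperonins, lie head to head with 215 bases between the start sites used here (Hspd1 starts at base 55087932 and Hspe1 at base 55088148 of chromosome 1). Hspd1 is also annotated from base 55088243, across this strip, and the exons of the 2 genes share 112 bases on opposite strands. The heat shock element, searched as the units GAA, TTC and GAA with 2 free bases between units, matched in 0.466% of all promoters and before 3 members, which were Hspd1, Hspe1 and Timm9. The strip between Hspd1 and Hspe1 held 2 overlapping matches, 1 on each strand, in chr1:55088053-55088082 read on the plus strand. Timm9, a small TIM chaperone, had 1 match in chr12:71136856-71136885 on the minus strand.
Hspd1 to Hspe1: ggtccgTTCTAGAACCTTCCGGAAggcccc
Timm9: attaggctTTCTAGAAATTTCgacagattc

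Lonp1, the Lon protease, and Tomm20, a receptor of the TOM complex, each had a match to the antioxidant response element, searched as TGACNNNGC. They were 2 of 31 members (6.45%), while 10.2% of all promoters hold it. Tomm20 also held the NRF1 element, searched as GCGC and TGCGC with 1 free base between them and present in 3.74% of all promoters. NRF1 is nuclear respiratory factor 1, an activator of genes for mitochondria. The stretches are chr17:56626904-56627153 for Lonp1 and chr8:126945922-126946171 for Tomm20, both on the minus strand.
Lonp1: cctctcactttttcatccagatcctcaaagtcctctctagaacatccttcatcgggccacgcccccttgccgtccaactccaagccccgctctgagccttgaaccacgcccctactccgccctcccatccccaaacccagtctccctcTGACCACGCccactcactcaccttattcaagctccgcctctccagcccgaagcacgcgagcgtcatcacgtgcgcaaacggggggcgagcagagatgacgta
Tomm20: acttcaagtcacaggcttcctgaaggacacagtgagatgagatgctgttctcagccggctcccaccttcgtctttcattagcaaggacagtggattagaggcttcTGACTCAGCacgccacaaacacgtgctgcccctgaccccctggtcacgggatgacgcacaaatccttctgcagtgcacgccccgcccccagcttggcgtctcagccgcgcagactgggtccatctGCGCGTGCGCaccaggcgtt

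The other patterns were as follows. The core that the stress factor CHOP shares with other C/EBP proteins, TGCAAT, was found before 3 members (Hspd1, Hspe1 and Timm17b) and in 7.32% of all promoters. For Hspd1 and Hspe1 this was the same site, in the strip between them. The combined C/EBP and ATF element, TGATGNAA, was found before 0 of the 31 members and in 3.45% of all promoters. GABP, another activator of mitochondrial genes, was searched as CCGGAAGT. Those letters stood before Timm23, Timm29, Timm8a2 and Tomm70a, and in 2.88% of all promoters. A second RefSeq start of Hspd1, at base 55088243 of chromosome 1, also had the NRF1 letters before it.

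Summed FPKM was 316912 to 339943 per library. Of the 10 neuron markers, 3 (Tubb3, Syn1 and Dlg4) reached 1 FPKM in all 9 libraries, while Rbfox3 and Map2, which define mature neurons, were at 0.00 to 0.16 and 0.00 to 0.22 FPKM. The summed neuron markers were 17.03 to 21.53 FPKM in control, 14.84 to 15.38 in experimental and 12.09 to 13.63 in intervention libraries. On average Syn1 was at 6.01, 3.02 and 2.83 FPKM in the same order, and Dlg4 at 3.88, 2.26 and 2.02. Tubb3 instead was at 5.69 to 8.12 FPKM in control, 8.32 to 8.46 in experimental and 5.88 to 7.43 in intervention libraries. Vim, a filament gene of undifferentiated cells, was at 615 to 662 FPKM in control and 285 to 325 in the other libraries. The other progenitor markers, Nes and Sox2, were at 0.06 FPKM or less in all 9 libraries. The 4 microglia markers summed to 9.79 to 11.2 FPKM in control, 0.95 to 1.35 in experimental and 1.43 to 2.18 in intervention libraries. That sum was nearly all Tmem119, since Aif1, Cx3cr1 and P2ry12 were at 0.17 FPKM or less in all 9 libraries. The 4 astrocyte markers summed to 5.39 to 6.04, 2.25 to 2.51 and 2.21 to 3.31 FPKM in the same order, mostly from Slc1a3. The part of these marker levels in the results below was not tested, and in bulk RNA fewer cells of a type and less RNA per cell cannot be told apart.

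Groups were compared on log2(FPKM + 1) with limma over 11974 entries that reached 1 FPKM in at least 3 libraries. The call threshold was an adjusted p under 0.05 (Benjamini-Hochberg, over all of them). Of the members, 34 passed this filter, 23 import and all 11 stress members. Over all tested entries the median difference was -0.207 for experimental minus control, 0.095 for intervention minus experimental and -0.104 for intervention minus control. Rescaling each library by the median of its ratios brought these medians to 0.003, 0.001 and 0.009. It also moved the split of calls. Experimental against control gave 2809 higher and 6047 lower entries as deposited, against 4380 and 4357 after rescaling. Intervention against experimental gave 1906 higher and 431 lower as deposited, against 567 and 946, and intervention against control gave 2890 and 4926 against 3912 and 3876. The difference of each member is therefore also read against these medians.

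The experimental libraries held more RNA of most of the 11 chosen chaperones and proteases than the control libraries, and of a part of the import machinery. This does not extend to mitochondrial quality control genes at large, since of 13 others described below 3 rose and 8 fell. Of the 11 stress members, 8 rose, 2 fell and 1 was not called, while 74.0% of all tested entries were called, 23.5% higher and 50.5% lower. The median difference over the 11 was 0.65, which is 0.86 above the median of all entries. Of the 23 tested import members, 10 rose, 6 fell and 7 were not called, with a median difference of 0.15, which is 0.36 above that of all entries. After median-ratio rescaling the counts were 9 higher and 1 lower for the stress members and 13 higher and 5 lower for the import members. Groups did not overlap for 10 import members that were higher and 7 that were lower, against 24.7% and 51.5% of all entries. The same count for the stress members was 8 and 2.

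Among the chaperones, 5 rose and 1 fell. Hspd1, at chr1:55077835-55088243 on the minus strand, was at 234, 257 and 251 FPKM in control, 808, 668 and 765 in experimental and 513, 655 and 542 in intervention libraries. The 3 groups did not overlap, with control lowest and experimental highest. The experimental mean of 747 ± 71.5 FPKM (SD, n = 3) was 3.02-fold the control mean of 247 ± 12, a log2 difference of 1.59 ± 0.10 (SE) with a limma adjusted p of 3.81e-07. This was the largest difference among the 34 tested members. Hspe1, its head-to-head neighbour at chr1:55088132-55091307, was at 42.3, 52.7 and 45.6 FPKM in control, 122, 109 and 122 in experimental and 91.3, 98.2 and 94.6 in intervention libraries. It showed the same order of groups, again without overlap, and was 2.5-fold higher in experimental than in control (log2 difference 1.31 ± 0.08, adjusted p = 3.53e-07).

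Copies elsewhere in the genome limit these values. Of the 50-base words in Hspd1 transcripts, 42.1% also occur in other annotated genes, such as the processed copy Hspd1-ps3, and for Hspe1 22.8% do. Hspd1-ps3 was listed at 10.7 to 13.5 FPKM in control, 30.4 to 36.5 in experimental and 19.6 to 26.9 in intervention libraries, the same order as Hspd1. How reads that match more than 1 gene were assigned is not given in the sources used here, so the level of each is uncertain as a single gene.

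Hspa9, the mitochondrial Hsp70 also called mortalin, was at 165, 168 and 175 FPKM in control, 275, 282 and 279 in experimental and 285, 288 and 280 in intervention libraries. Control stood apart from both other groups, which overlapped each other. The rise over control was 1.64-fold (log2 difference 0.71 ± 0.04, adjusted p = 3e-07). Both nucleotide exchange factors of Hspa9 rose as well. Grpel2 was at 3.50, 3.47 and 3.49 FPKM in control, 6.25, 6.33 and 6.15 in experimental and 5.99, 6.39 and 5.77 in intervention libraries, 1.79-fold higher in experimental than in control (adjusted p = 1.41e-06). Grpel1 was the more abundant of the pair, at 8.97 ± 0.90 FPKM in control and 12.2 ± 0.62 in experimental libraries (SD, n = 3), 1.35-fold higher (adjusted p = 0.000807).

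Trap1, the mitochondrial Hsp90, went the other way. It was at 28.8, 29.4 and 27.5 FPKM in control, 21.3, 22.2 and 21.3 in experimental and 24.3, 23.8 and 26.3 in intervention libraries. The groups did not overlap, and the experimental mean was 0.757 of the control mean (log2 difference -0.39 ± 0.05, adjusted p = 6.59e-05). Relative to the median of all entries the difference was -0.18.

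Among the proteases, 3 rose, 1 fell and 1 was not called. Lonp1, which degrades oxidised and unassembled matrix proteins, was at 65.6, 58.8 and 57.2 FPKM in control, 104, 113 and 109 in experimental and 111, 111 and 112 in intervention libraries. All experimental and intervention libraries were above all control libraries, and the experimental mean was 1.80-fold higher (log2 difference 0.84 ± 0.06, adjusted p = 7.35e-07). Afg3l2, a subunit of the m-AAA protease of the inner membrane, was at 6.02, 6.25 and 6.19 FPKM in control, 10.1, 9.81 and 10.7 in experimental and 8.89, 10.49 and 10.23 in intervention libraries. It was 1.66-fold higher in experimental than in control (adjusted p = 8.66e-06), with no overlap between them. The ClpXP protease consists of the unfoldase Clpx and the peptidase Clpp, and only the unfoldase was called. Clpx was at 10.9 ± 0.74 FPKM in control and 14.3 ± 0.41 in experimental libraries (SD, n = 3), 1.32-fold higher (adjusted p = 0.000203). Clpp was at 25.0, 25.0 and 24.0 FPKM in control and 24.6, 25.4 and 24.8 in experimental libraries, and its difference of 0.02 ± 0.06 (SE) had an adjusted p of 0.818. After median-ratio rescaling the difference of Clpp was 0.26 and was called (adjusted p = 0.00121).

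Yme1l1, the i-AAA protease that faces the intermembrane space, fell from 20.08 ± 0.97 FPKM in control to 16.99 ± 0.30 in experimental libraries (SD, n = 3). The ratio was 0.846 with an adjusted p of 0.00337. Its difference of -0.23 was close to the median of all entries. After median-ratio rescaling it was 0.01 with an adjusted p of 0.85, so this call and its direction depended on the scaling.

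**Figure D1:**
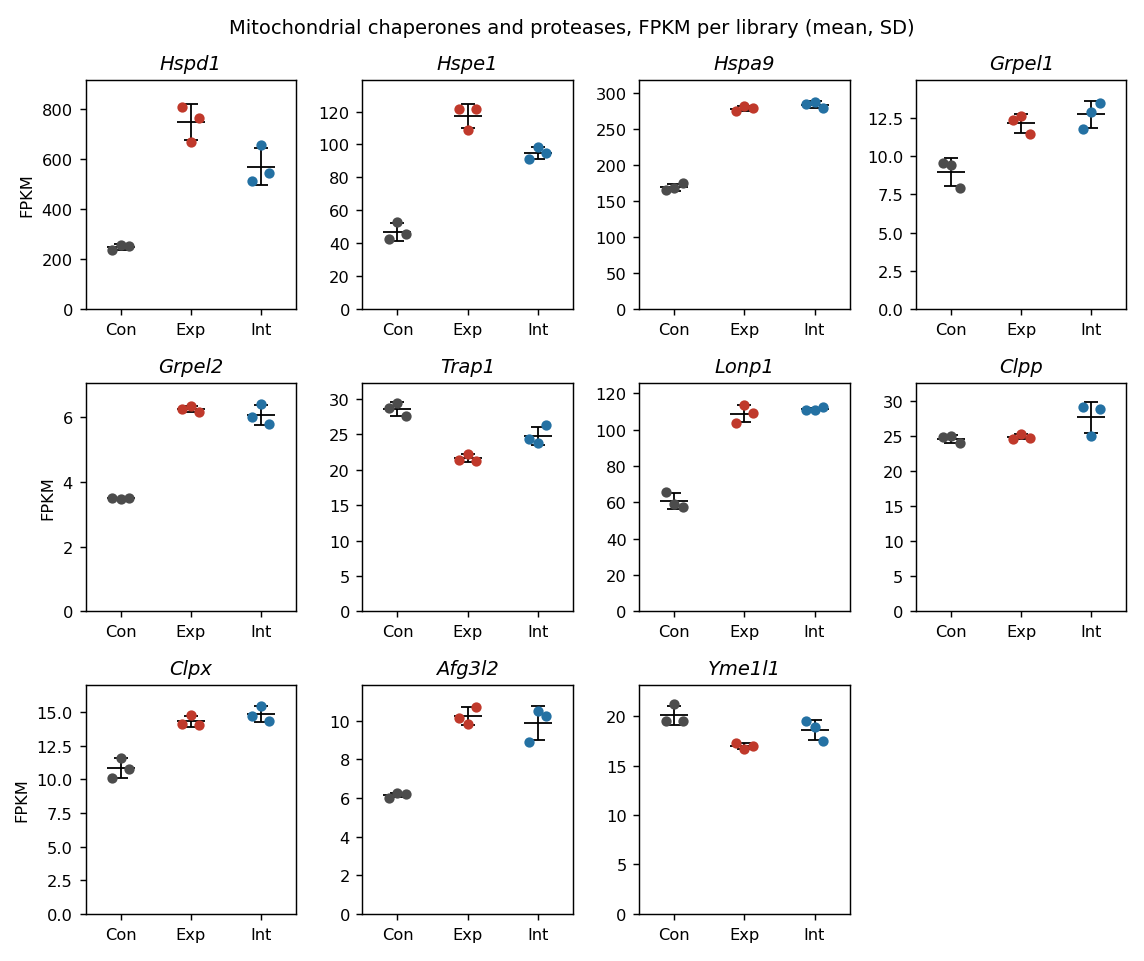
FPKM of the 11 chaperone and protease members (vertical axis of each panel, starting at 0) in control (Con), experimental (Exp) and intervention (Int) libraries, with 1 point per library and the mean ± SD as lines. Hspd1 and Hspe1 are lowest in control, highest in experimental and between these in intervention libraries, while Hspa9 and Lonp1 are alike in experimental and intervention libraries, at 275 to 288 and 104 to 113 FPKM.

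The TOM set, which counts the cytosolic cochaperone Tomm34 with the complex, had 9 tested members. Of these 4 rose, 1 fell and 4 were not called in experimental against control. The shares over all entries, for this and the TIM sets below, were 23.5% higher and 50.5% lower. Both receptors that first bind precursors rose. Tomm20, which recognises presequences, was at 21.7, 22.9 and 18.5 FPKM in control, 39.2, 38.8 and 36.8 in experimental and 34.3, 36.7 and 35.1 in intervention libraries. Tomm70a, the receptor for carrier proteins and chaperone-bound precursors, was at 7.74, 9.06 and 8.36 FPKM in control, 14.3, 14.9 and 14.1 in experimental and 14.0, 14.4 and 14.5 in intervention libraries. For both genes every control library was below every other library. The experimental mean was 1.82-fold the control mean for Tomm20 (log2 difference 0.84 ± 0.07, adjusted p = 3.1e-06) and 1.72-fold for Tomm70a (0.72 ± 0.06, adjusted p = 1.96e-06).

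Tomm5, a small subunit of the pore complex, was at 13.5, 20.4 and 13.9 FPKM in control, 28.6, 31.1 and 27.9 in experimental and 33.5, 27.4 and 32.9 in intervention libraries. Control replicate 2 was the highest of its group and still below all 6 other libraries. Tomm5 was 1.83-fold higher in experimental than in control, with a wider error than the receptors (log2 difference 0.86 ± 0.14, adjusted p = 0.000237). Tomm40, the channel itself, was at 12.5 ± 1.14 FPKM in control and 16.6 ± 0.58 in experimental libraries (SD, n = 3), 1.33-fold higher (adjusted p = 0.00102).

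The fall was in Tomm40l, a channel paralogue, which was at 6.71, 6.68 and 6.28 FPKM in control, 3.48, 4.13 and 3.39 in experimental and 6.03, 5.25 and 4.70 in intervention libraries. The 3 groups did not overlap, with experimental lowest, and the experimental mean was 0.559 of the control mean (log2 difference -0.70 ± 0.09, adjusted p = 4.18e-05). Of the exon bases of Tomm40l, 64.3% overlap Nr1i3 on the opposite strand, and the use of strand in counting is not given. Nr1i3 was listed at 0.02 to 0.28 FPKM.

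The uncalled members of the TOM set were Tomm22, Tomm34, Tomm6 and Tomm7. Tomm22, the central receptor, was at 44.7 ± 4.65 FPKM in control and 41.8 ± 3.40 in experimental libraries (SD, n = 3), and was the most abundant TOM transcript. Tomm34, a cytosolic cochaperone of import, was at 9.75 ± 0.50 and 10.9 ± 0.83 FPKM, with an adjusted p of 0.0545. Tomm34 was called higher after median-ratio rescaling (adjusted p = 0.00056) and without experimental replicate 3 or control replicate 2 (0.0494 and 0.0395). Tomm7 was at 5.02 ± 0.78 and 4.16 ± 0.93 FPKM with overlapping groups. Tomm6 was at 12.03, 10.23 and 12.23 FPKM in control, 10.8, 7.39 and 10.4 in experimental and 28.7, 9.54 and 13.1 in intervention libraries. Of its exon bases 76.0% are shared on the same strand with the predicted gene Gm21981, which was listed at 2.10 FPKM in intervention replicate 1 and at 7.40 to 11.95 in the other libraries. The sum of the 2 entries was 30.8 FPKM in that library and 15.4 to 23.0 in the others, so Tomm6 was also high there with its overlapping entry added.

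The TIM23 complex and its motor had 6 tested members, with 2 higher, 3 lower and 1 not called. The median difference over the 6 was -0.19, near that of all entries, and it was 0.02 after median-ratio rescaling. Timm23, the channel, was at 15.7, 16 and 15.1 FPKM in control and 18.3, 22.9 and 19.0 in experimental libraries, without overlap. It was 1.29-fold higher (log2 difference 0.34 ± 0.09, adjusted p = 0.00623). Of its 50-base words 57.5% occur in other annotated genes, led by predicted copies. Gm10273, one of these, was at 8.35 FPKM in control and 8.47 in experimental libraries on average.

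The paralogues Timm17a and Timm17b, alternative subunits of the same channel, moved apart. Timm17b, at chrX:7899357-7908351, was at 6.33, 6.57 and 6.18 FPKM in control, 3.44, 3.44 and 3.26 in experimental and 4.49, 3.75 and 3.90 in intervention libraries. No library of one group overlapped another, and the experimental mean was 0.531 of control (log2 difference -0.75 ± 0.07, adjusted p = 3.48e-06), the most negative difference among the 34 members. Timm17a was at 5.86, 7.18 and 6.32 FPKM in control and 7.62, 7.04 and 8.10 in experimental libraries. Its groups overlapped, its adjusted p of 0.0335 was near the threshold, and the call was lost without experimental replicate 1 or 3 or control replicate 1 or 3 (adjusted p of 0.0758 to 0.131).

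Timm44, which tethers the motor to the channel, was at 12.9, 11.9 and 12.5 FPKM in control, 7.13, 7.99 and 7.99 in experimental and 10.3, 9.79 and 9.18 in intervention libraries. The groups did not overlap, and the ratio of experimental to control was 0.620 (adjusted p = 7.8e-06). Timm21, a coupler to the respiratory chain, fell to a ratio of 0.750 (adjusted p = 0.0027), but after median-ratio rescaling its adjusted p was 0.130. Timm50, the presequence receptor of TIM23, was at 14.7 ± 0.71 FPKM in control and 14.0 ± 0.65 in experimental libraries (SD, n = 3). It was not called as deposited, with a difference of -0.07, and was called higher after median-ratio rescaling, with a difference of 0.17 and an adjusted p of 0.0128.

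The TIM22 complex with the small TIMs had 8 tested members, 4 higher, 2 lower and 2 not called. Timm10, which forms the chaperone hexamer of the intermembrane space with Timm9, was at 7.84, 8.19 and 7.65 FPKM in control, 16.5, 14.0 and 16.9 in experimental and 17.1, 18.2 and 18.1 in intervention libraries. The 3 groups did not overlap, with intervention highest. It was 2.01-fold higher in experimental than in control (log2 difference 0.92 ± 0.07, adjusted p = 1.33e-06), the largest rise of an import member. Its partner Timm9 was at 2.73, 2.75 and 2.64 FPKM in control, 3.81, 4.08 and 4.33 in experimental and 4.62, 4.83 and 3.85 in intervention libraries. Timm9 was 1.5-fold higher (adjusted p = 0.000394), also with no overlap between experimental and control.

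Timm8a1 and Timm8b, paralogous partners of Timm13, moved in opposite directions. Timm8a1, the mouse counterpart of the gene mutated in deafness-dystonia syndrome, was at 20.7, 24.7 and 19.8 FPKM in control, 33.8, 30.03 and 32.04 in experimental and 32.7, 33.1 and 35.1 in intervention libraries. It was 1.47-fold higher in experimental than in control (adjusted p = 0.000129). Timm8b was at 29.4, 31.5 and 27.6 FPKM in control, 17.9, 20.4 and 18.6 in experimental and 29.6, 26.7 and 26.1 in intervention libraries. Experimental was below both other groups, which overlapped each other, and the ratio to control was 0.643 (log2 difference -0.61 ± 0.07, adjusted p = 2.4e-05). Of the 50-base words of Timm8a1, 41.0% occur in Gm9797, which was at 11.9 FPKM in control, 16.1 in experimental and 16.7 in intervention libraries on average.

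Timm22, the carrier channel, fell to a ratio of 0.670 (5.19 ± 0.08 against 7.74 ± 0.13 FPKM, SD, n = 3, adjusted p = 2.78e-05). Its partner Timm29 rose 1.27-fold (13.2 ± 0.93 against 10.4 ± 0.68 FPKM, adjusted p = 0.000895). Timm13 was at 13.3 ± 1.29 FPKM in control and 14.9 ± 0.49 in experimental libraries, and Timm10b at 3.46 ± 0.07 and 2.93 ± 0.30. Neither was called, with adjusted p of 0.117 and 0.109. Timm13 was called higher after median-ratio rescaling (adjusted p = 0.000825) and without control replicate 2 (0.029), and Timm10b was called lower without intervention replicate 2 (0.0379). Timm10b was higher rather than lower in the experimental libraries under median-ratio and quantile scaling, without a call.

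**Figure D2:**
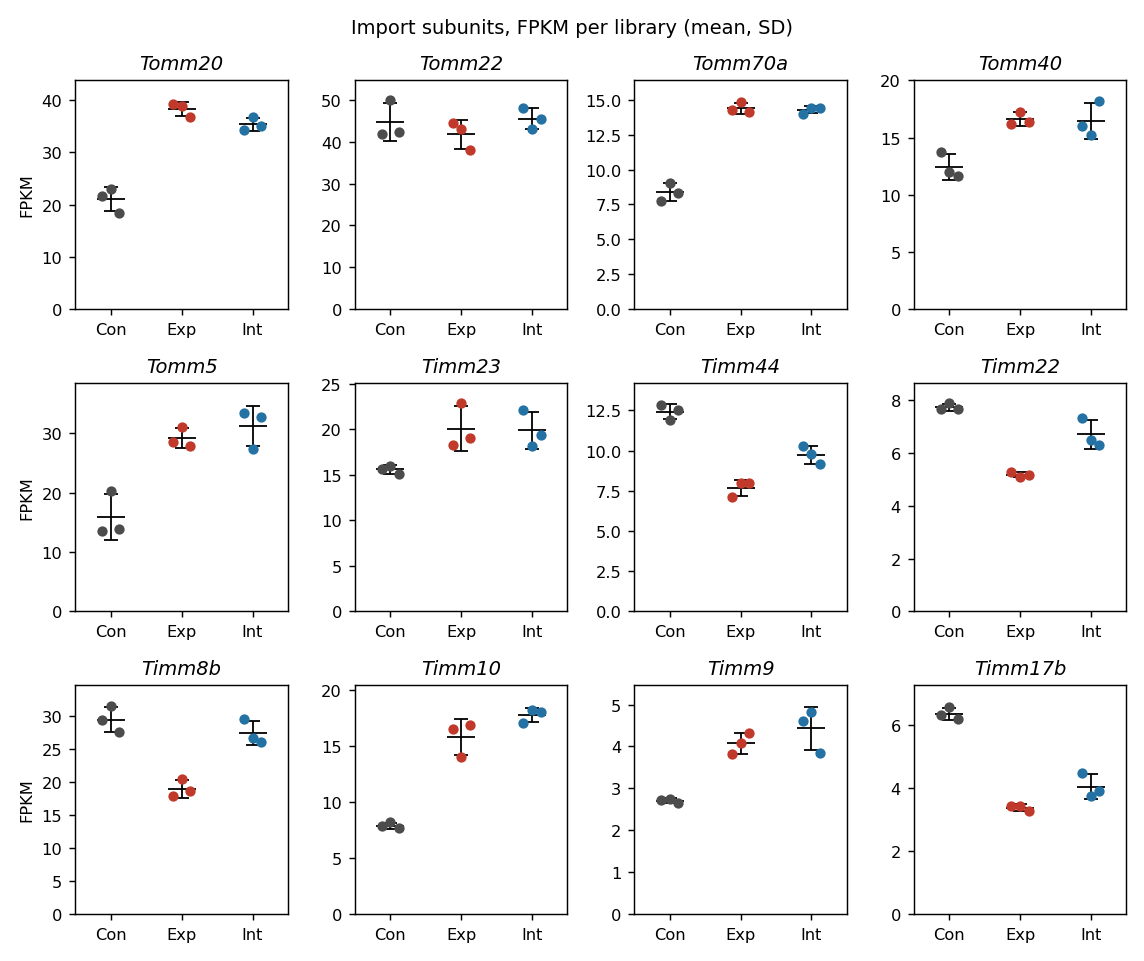
FPKM of a selection of import members (vertical axis of each panel, starting at 0) in control (Con), experimental (Exp) and intervention (Int) libraries, with 1 point per library and the mean ± SD as lines. Timm10, Tomm20 and Tomm70a sit higher in all experimental and intervention libraries than in control, Timm17b and Timm44 lower, and Timm8b is low in the experimental libraries alone, at 17.9 to 20.4 FPKM.

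The members below the filter were Timm8a2, Tomm20l and Tomm6os. Timm8a2 was listed at 0 in 8 libraries and at 0.06 FPKM in experimental replicate 3. Tomm20l, a paralogue of Tomm20, was listed at 0 in the 3 control libraries, at 0.24, 0.19 and 0.32 FPKM in the experimental and at 0.11, 0.16 and 0 in the intervention libraries. Of its exon bases 6.81% overlap Timm9 on the opposite strand. Tomm6os was at 0.39 to 0.68 FPKM in all 9 libraries.

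Ratios between paralogues within a library do not depend on the scaling of that library. The ratio of Timm17a to Timm17b was 0.93, 1.09 and 1.02 in control, 2.22, 2.05 and 2.48 in experimental and 1.55, 2.09 and 1.90 in intervention libraries. Tomm40 to Tomm40l was 2.05, 1.80 and 1.85 in control, 4.65, 4.18 and 4.83 in experimental and 2.65, 2.90 and 3.87 in intervention libraries. Timm8a1 to Timm8b was 0.70, 0.79 and 0.72 in control, 1.89, 1.47 and 1.72 in experimental and 1.11, 1.24 and 1.35 in intervention libraries. For these 3 pairs the control libraries were lowest, and for Tomm40 and Timm8a1 the intervention libraries lay between control and experimental without overlap. On the log2 scale the ratios were higher in experimental than in control by 1.15, 1.26 and 1.20. Timm10 to Timm10b changed by 1.24, from 2.22 to 2.37 in control to 4.58 to 6.38 in experimental libraries.

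Grpel1 to Grpel2 went the other way, from 2.28 to 2.74 in control to 1.86 to 2 in experimental libraries, a log2 change of -0.40. The chaperonin pair Hspd1 to Hspe1 was at 4.88 to 5.53 in control, 6.14 to 6.64 in experimental and 5.62 to 6.66 in intervention libraries, a log2 change of 0.26 against control in the experimental libraries. Each of these 6 ratios differed between experimental and control with no overlap, at the exact 2-sided permutation p of 0.10 that is the smallest 3 against 3 libraries allow. No ratio could therefore pass 0.05, before or after adjustment over 6 pairs and 3 comparisons. Separation was common in this comparison, since 24.7% of all tested single entries were higher and 51.5% lower without overlap. How often ratios of other entries separate was not tested.

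**Figure D3:**
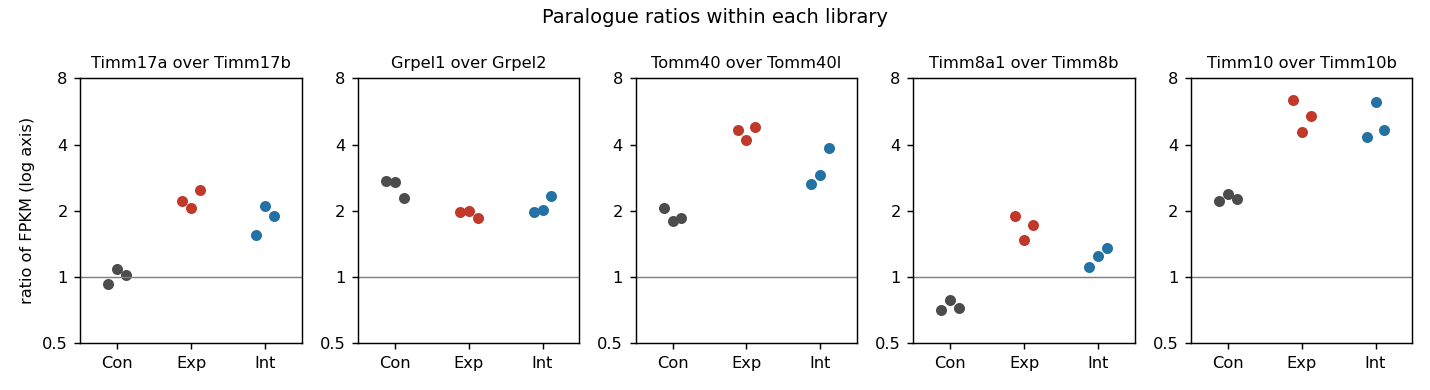
Ratio of FPKM between the members of each of 5 paralogue pairs within each library (vertical log axis) in control (Con), experimental (Exp) and intervention (Int) libraries, with 1 point per library. The Tomm40 to Tomm40l and Timm8a1 to Timm8b ratios are lowest in control, highest in experimental and between these in intervention libraries.

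To set import beside the stress response, the median difference from the control mean was taken over each set in each library. The chaperones were at 0.69 to 0.72 in the experimental and 0.66 to 0.74 in the intervention libraries, and the proteases at 0.34 to 0.42 and 0.37 to 0.48. The import members were at 0.09 to 0.10 and 0.06 to 0.18, and all tested entries at -0.23 to -0.18 and -0.13 to -0.08. In all 6 experimental and intervention libraries the order was thus chaperones, proteases, import members and all entries. Within the import set the TIM23 members were at -0.24 to -0.13 in the experimental libraries, while the TIM22 members with the small TIMs were at 0.16 to 0.28. These medians are descriptions, with no test of the difference between sets.

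**Figure D4:**
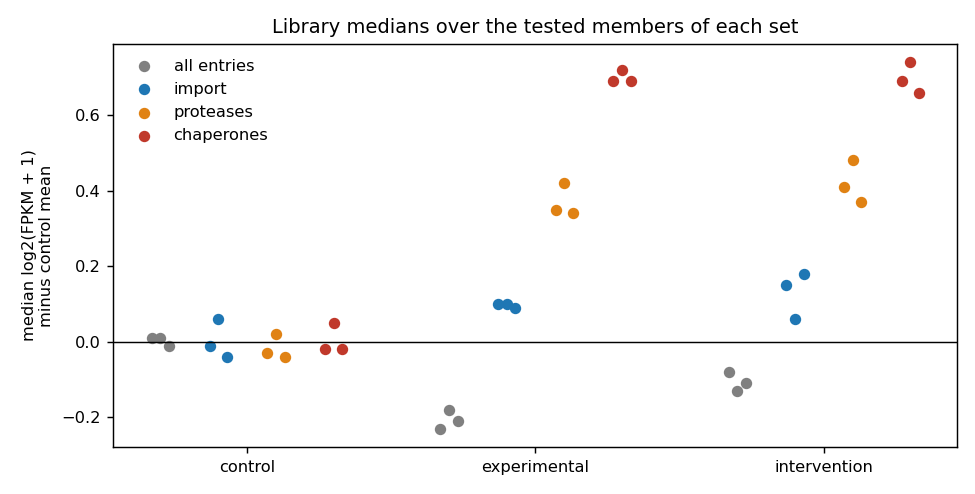
Median over the tested members of each set of log2(FPKM + 1) minus the control mean (vertical axis) in each library, grouped as control, experimental and intervention. Chaperones reach 0.66 to 0.74 in the experimental and intervention libraries, import members 0.06 to 0.18.

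Genes that work beside the members were followed in 4 lists. Of 19 tested import genes with other names, 2 rose and 11 fell in experimental against control, where 23.5% of all entries rose and 50.5% fell. Samm50, the core of the outer membrane sorting machinery, fell to 0.545 of control (9.16 ± 0.67 against 16.8 ± 0.21 FPKM, SD, n = 3, adjusted p = 1.35e-05). Mtch1 and Mtch2, outer membrane proteins of which Mtch2 inserts tail-anchored proteins, fell to 0.645 and 0.652 of control. Chchd4, the Mia40 oxidoreductase that folds small TIMs in the intermembrane space, rose 1.80-fold (3.86 ± 0.28 against 2.15 ± 0.19 FPKM, adjusted p = 4.98e-05). The median of this list was -0.27, near that of all entries (-0.06 relative to it), and after median-ratio rescaling 3 rose and 9 fell.

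Of 13 other quality control genes, 3 rose and 8 fell, where 23.5% and 50.5% of all entries did. The median was -0.40, which is -0.19 relative to that of all entries. After median-ratio rescaling 5 rose and 7 fell, with a median of -0.17. Oma1, a stress-activated protease of the inner membrane, was at 4.21, 4.61 and 4.84 FPKM in control, 1.11, 1.28 and 0.72 in experimental and 1.78, 1.57 and 1.73 in intervention libraries. The groups did not overlap, and the experimental mean was 0.228 of control (log2 difference -1.46 ± 0.10, adjusted p = 9.31e-07). Spg7 and Afg3l1, which form m-AAA proteases with Afg3l2, fell to 0.487 and 0.527 of control where Afg3l2 rose. Stoml2, a scaffold protein of the inner membrane, fell to 0.524.

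The stress signalling list had 13 tested genes, of which 8 rose and 2 fell, with a median of 0.68, which is 0.89 above that of all entries. Of all entries 23.5% rose and 50.5% fell. After median-ratio rescaling 11 rose and 1 fell. Ddit3, which encodes CHOP, was at 27.2, 23.7 and 23.5 FPKM in control, 101, 93.1 and 101 in experimental and 76.5, 87.2 and 82.8 in intervention libraries. It was 3.96-fold higher in experimental than in control (adjusted p = 2.72e-08), and the 3 groups did not overlap. Trib3, a pseudokinase target of CHOP and ATF4, Mthfd2, a mitochondrial folate enzyme, and Asns, asparagine synthetase, rose 2.05-fold, 1.92-fold and 1.78-fold. Named after their values were seen, Dele1, which relays mitochondrial stress to the cytosol, fell to 0.457 of control (adjusted p = 1.47e-06), and Atf5, a transcription factor of the mitochondrial unfolded protein response, was at 95.5 against 90.3 FPKM and was not called (adjusted p = 0.364). After median-ratio rescaling Atf5 was called higher (adjusted p = 0.00208).

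Of 7 mitochondrial biogenesis factors, 1 rose and 3 fell, where 23.5% and 50.5% of all entries did. The list median of -0.13 was near that of all entries, at 0.08 relative to it. After median-ratio rescaling 1 rose and 2 fell. Ppargc1a, the coactivator PGC-1 alpha, was at 11.11, 10.37 and 10.96 FPKM in control and 5.46, 5.87 and 5.66 in experimental libraries, a ratio of 0.524 (adjusted p = 7.19e-07). Esrra, a nuclear receptor that works with it, fell to 0.669. The GABP subunits differed from each other, with Gabpb1 1.54-fold higher and Gabpa at 0.860 of control, and Gabpa reversed without a call after median-ratio rescaling.

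Between the intervention and experimental libraries fewer members differed. Of the 23 import members 5 rose and 0 fell, and of the 11 stress members 1 rose and 2 fell, where 19.5% of all tested entries were called, 15.9% higher and 3.60% lower. The unadjusted p was under 0.05 for 9 import and 5 stress members, and for 4550 of all 11974 tested entries. Groups did not overlap for 8 import members that were higher and 1 that was lower, against 33.7% and 8.79% of all entries. The median differences of 0.12 and 0.03 lay near the 0.095 of all entries. All 3 comparisons draw on the same 9 libraries, and this one shares the experimental libraries with the comparison above, so only each comparison's own values are set side by side.

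The import members that rose were Timm8b, Tomm40l, Timm22, Timm44 and Timm21, each of which was lower in experimental than in control. Both comparisons use the same experimental libraries with opposite sign, so this pairing of directions is not an independent result. Timm8b was 1.45-fold higher in intervention than in experimental libraries (log2 difference 0.51 ± 0.07, adjusted p = 0.0151) and at 0.931 of control (adjusted p = 0.236). Tomm40l was 1.45-fold higher than experimental (adjusted p = 0.0161) and at 0.812 of control, and Timm22 was 1.29-fold higher (adjusted p = 0.0154) and at 0.867 of control. Timm44 was 1.27-fold higher (adjusted p = 0.0167) and at 0.785 of control. Timm21 was 1.31-fold higher (adjusted p = 0.0262) and at 0.980 of control. Timm17b, the other import member that fell in experimental against control, was 1.20-fold higher without a call (adjusted p = 0.0559).

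The chaperonins fell. Hspd1 was at 0.763 of its experimental level (570 ± 74.8 against 747 ± 71.5 FPKM, SD, n = 3, log2 difference -0.39 ± 0.10, adjusted p = 0.0256), and Hspe1 at 0.807 (94.7 ± 3.50 against 117 ± 7.32 FPKM, adjusted p = 0.0287). Trap1 rose 1.15-fold (adjusted p = 0.0339). It was not called under median-ratio rescaling (difference 0.08, adjusted p = 0.325) or quantile normalization (0.12, adjusted p = 0.137). The other stress members were not called. The log2 difference was 0.03 ± 0.04 (SE) for Hspa9, 0.03 ± 0.06 for Lonp1, -0.04 ± 0.05 for Grpel2 and -0.05 ± 0.06 for Afg3l2. Among import members that rose in experimental against control, it was -0.01 ± 0.06 for Tomm70a, -0.11 ± 0.07 for Tomm20 and 0.16 ± 0.07 for Timm10.

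These calls depended on the scaling and on the libraries included. Timm21 lost its call after median-ratio rescaling (adjusted p = 0.0745), and quantile normalization left Timm8b and Tomm40l as the import calls. Without experimental replicate 1, experimental replicate 3 or intervention replicate 1, in turn, 0 members were called in this comparison. The loss was table-wide, since of all 11974 tested entries these fits called 1, 4 and 3 higher and 0, 0 and 3 lower. Leaving out intervention replicate 3 gave 4 import calls and 0 stress calls, with 771 of all entries called higher and 168 lower. Without control replicate 1, which enters only through the shared estimate of spread, the Trap1 call was lost (adjusted p = 0.0516). None of the 8 member calls held under all alternatives.

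Of the neighbouring genes, 6 import genes with other names and 5 other quality control genes rose and 0 fell. Over all tested entries 15.9% rose and 3.60% fell. After median-ratio rescaling 1 gene of each of these lists rose, and the list medians went from 0.16 and 0.19 to 0.06 and 0.08. After quantile normalization the counts were 0 and 1. Samm50 was 1.33-fold and Oma1 1.63-fold higher than in experimental libraries (adjusted p = 0.0226 and 0.0272). In the stress signalling list 1 gene rose and 3 fell, and Ddit3 was at 0.837 of its experimental level (adjusted p = 0.0335). Of the biogenesis factors Ppargc1a was 1.24-fold higher (adjusted p = 0.0176), the 1 call among 7. After median-ratio rescaling Samm50, Oma1 and Ppargc1a were not called (adjusted p = 0.0518, 0.0524 and 0.0558). All of these named calls were lost without experimental replicate 1, experimental replicate 3 or intervention replicate 1, and those of Oma1 and Ddit3 also without intervention replicate 3. The whole-table counts of these fits are given in the paragraph above.

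Against control, the intervention libraries had 10 import members higher, 4 lower and 9 not called, and 9 stress members higher, 1 lower and 1 not called. Over all tested entries 65.3% were called, 24.1% higher and 41.1% lower. The medians were 0.18 for import and 0.60 for stress members against -0.104 for all entries. Groups did not overlap for 9 import members that were higher and 4 that were lower, against 25.8% and 42.9% of all entries. After median-ratio rescaling the import counts were 13 higher and 2 lower and the stress counts 9 and 0.

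Hspa9 was 1.68-fold higher than in control (adjusted p = 3.97e-07), Lonp1 1.84-fold, Grpel2 1.74-fold and Afg3l2 1.60-fold. Hspd1 was 2.3-fold higher (adjusted p = 3.73e-06) and Hspe1 2.02-fold (adjusted p = 2.93e-06). Clpp, uncalled in experimental against control, was 1.12-fold higher here (adjusted p = 0.0369), a call that not all alternatives kept. It was lost in 7 of the 9 fits that left out 1 library, with adjusted p of 0.052 to 0.126. In the direct comparison of intervention with experimental libraries Clpp was not called (adjusted p = 0.108). Trap1 was lower at 0.868 of control (adjusted p = 0.00656), a call that was lost after median-ratio rescaling.

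Among import members, Timm10 was 2.26-fold higher than in control (adjusted p = 8.72e-07), Tomm5 1.96-fold, Tomm70a 1.70-fold and Tomm20 1.68-fold. The calls of 9 higher import members held here under all alternatives that tested them: Timm10, Timm23, Timm29, Timm8a1, Timm9, Tomm20, Tomm40, Tomm5 and Tomm70a. Timm17b at 0.636 of control (adjusted p = 4.85e-05) and Timm44 at 0.785 (adjusted p = 0.00109) were the lower members whose calls held here in the same way. Timm9 and Timm17b had means below 5 FPKM and were not tested under the alternative with that filter. Timm13 was 1.23-fold higher (adjusted p = 0.0136) with overlapping groups, a call lost without intervention replicate 1 (0.0522) or control replicate 3 (0.0521). Timm22 and Tomm40l were lower with adjusted p of 0.0195 and 0.023, and both calls were lost after median-ratio rescaling (0.339 and 0.133). Without intervention replicate 2 or 3 both were lost as well (0.0637 and 0.0782 for Timm22, 0.0565 and 0.0917 for Tomm40l), and without control replicate 1 or 2 Tomm40l was lost (0.0658 and 0.0584). Tomm6, uncalled here (adjusted p = 0.278), was called higher without intervention replicate 2 (0.0442), and Timm17a, uncalled (0.0664), without control replicate 2 (0.0162).

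**Figure D5:**
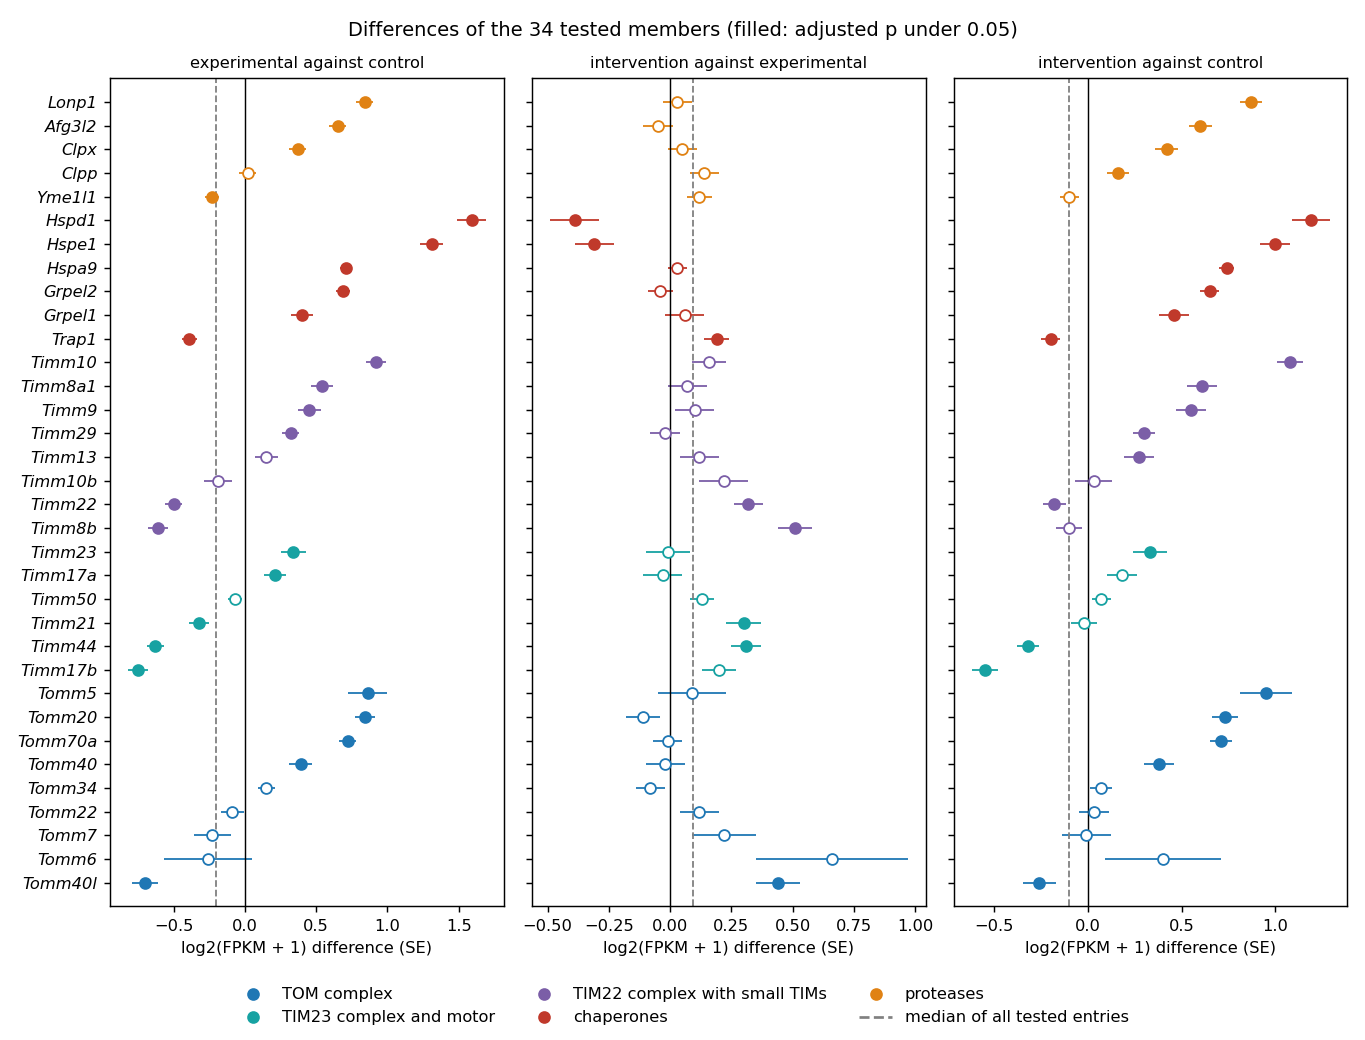
Difference in log2(FPKM + 1) with its SE (horizontal axis, on a scale of its own in each panel) for the 34 tested members in the 3 comparisons, coloured by role and filled where the adjusted p is under 0.05, with the median of all tested entries as a dashed line. Hspd1 and Hspe1 lie farthest right of control in the experimental libraries, at 1.59 and 1.31, and are the members called lower in intervention against experimental.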

How the data were processed

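The authors deposited 1 table of FPKM with 29756 entries and 9 libraries. The submitters' processing notes name the build mm10; the aligner, counter, annotation and use of strand were not given there or in the labels. Per the labels' protocols, libraries were made from total RNA with a SMARTer mRNA kit. Whole reads were not recovered: at best 31.4% to 34.6% of low values per library came within 0.1 read of a whole number, so depth is unknown, no count test was run, and precision rests on the spread between replicates.

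The members, lists and alternatives were chosen with earlier results of these data known. FPKM was transformed to log2(FPKM + 1), and entries with at least 1 FPKM in at least 3 libraries were tested with limma 3.58.1 in R 4.3.3 (eBayes with a trend, all 9 libraries in 1 fit, no covariate). Adjusted p-values are Benjamini-Hochberg over all 11974 tested entries, 2-sided, called under 0.05. Differences on this scale understate the change of low genes, so ratios of mean FPKM stand beside them. Paralogue ratios were compared with exact permutation tests. The naming rule took every member, plus up to 4 genes per neighbouring list with the smallest p in experimental against control; Dele1 and Atf5 were added after their values were seen.

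The labels give each group replicates 1 to 3 without saying what a number shares. Deviations of same-numbered libraries correlated at -0.182 to 0.11, so the numbers were not taken to pair libraries. The alternatives were 8 other settings (pseudocount 0.1, no filter, mean FPKM of at least 5, median-ratio, quantile and TPM scaling, only the groups compared, and a replicate block) and leaving out each of 9 libraries. The fit was tested on simulated data. Gene positions, overlaps and shared 50-base words came from GENCODE M21 on mm10, and sequences before start sites from RefSeq on GRCm38.p6.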

Additional observations from a re-analysis of the deposited data

How the results depend on the processing

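For experimental against control, 9 higher and 5 lower import calls held under all of the 17 alternatives that tested the gene. So did 8 higher and 1 lower chaperone and protease calls. Timm9 and Timm17b are counted among the import calls, but their means were below 5 FPKM, so the alternative with that filter did not test them. Timm17a, Timm21 and Yme1l1 lost their calls under at least 1 alternative. For intervention against control the same counts were 9, 2, 8 and 0, and for intervention against experimental none of 8 calls held. The cause of these losses was not tested. A mean of at least 5 FPKM, which tests fewer genes, gave 5702 calls over all entries for experimental against control and 5129 for intervention against control, and left some low members without a value.

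For intervention against experimental, the entries called were 358 with no filter, 1513 with median-ratio scaling, 1038 with quantile normalization and 1268 with the replicate block, against 2337, and 1 to 2571 when 1 library was left out. Import members called higher were 2 with no filter or quantile normalization and 0 to 8 without 1 library. Chaperones and proteases called higher were 0 with no filter, median-ratio scaling, quantile normalization or the replicate block, and called lower 0 with no filter or the replicate block. Both counts were 0 to 2 without 1 library.

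Chaperones and proteases called lower against control were 1 in the experimental libraries with median-ratio scaling or quantile normalization. In the intervention libraries they were 0 with median-ratio scaling and 2 with TPM, and import members called lower were 2 with median-ratio scaling or quantile normalization and 2 to 4 without 1 library.

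Signs reversed for small differences. For experimental against control, median-ratio scaling gave 0.00712 for Timm10b, 0.17 for Timm50, 0.0124 for Yme1l1 and 0.0337 for Gabpa, quantile normalization 0.133 for Timm10b and 0.0926 for Timm50, and TPM -0.0475 for Clpp. For intervention against control, median-ratio scaling gave 0.0302 for Timm8b, 0.0247 for Yme1l1 and 0.0344 for Gabpa, and TPM -0.0356 for Timm10b, -0.00598 for Timm50 and -0.000145 for Tomm34. Without 1 library Clpp ranged from -0.00279 to 0.0263 in the first comparison, and Timm10b from -0.0284 to 0.143 and Tomm6 from -0.0314 to 0.716 in the second.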
